A study of Mus musculus with 6 samples.

Results

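Translation initiation and elongation factors are the proteins that bring the ribosome to the start codon and then drive it along the mRNA. Here they were taken as every gene whose symbol begins with Eif or Eef followed by a digit, leaving out the eIF2 kinases (symbols beginning with Eif2ak), which gave 56 of the 15912 genes listed. The rule reads names only. Their mRNA levels were compared between hippocampal microglia with many and with few lipid droplets. BODIPY-high microglia (droplet-rich; 3 libraries) and BODIPY-low microglia (droplet-poor; 3 libraries) came from male C57BL/6 mice aged 3 months. All animals of both gates had received lipopolysaccharide (LPS, the endotoxin of Gram-negative bacteria) into the peritoneum at 1 mg/kg for 4 days, and the tissue was collected 24 h after the last dose. Each sample pooled the hippocampi of 2 mice, live CD11b-positive, CD45-low cells were sorted, and the fluorescence of BODIPY, a dye of neutral lipid, set the gate. Nothing in the labels says whether the 3 samples of a gate came from separate pools of animals, so p-values measure only the spread between these samples.

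Initiation begins when eIF2, loaded with GTP and the initiator tRNA, joins the small ribosomal subunit together with eIF1, eIF1A, eIF3 and eIF5, while eIF4E, eIF4G and the helicase eIF4A bring in the capped mRNA. After the subunits join, eEF1A delivers each aminoacyl-tRNA and eEF2 moves the ribosome along by 1 codon at a time. Cells regulate these steps largely by phosphorylation: stress kinases slow initiation by acting on eIF2, mTORC1 promotes it by freeing eIF4E from its binding proteins, and eEF2 kinase slows elongation by inhibiting eEF2. In macrophages, LPS is known to act on translation through mTORC1 and MAP kinases. The measurement here is of mRNA, so protein amount and phosphorylation were not analysed here.

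Libraries held 34899413 to 39220494 reads recovered from the deposited values, with 37633089 to 39220494 in BODIPY-high and 34899413 to 36518323 in BODIPY-low libraries. Values below are normalized counts, that is, reads per gene after the authors' scaling by a library factor of 0.911 to 1.09, and a count of 0 would allow up to 2.76 to 3.29 of them (counting error only). All 15 microglial markers looked for, such as Tmem119 and P2ry12, passed the filter on low values. By limma 0 were called, beside 2.05% of all genes tested, and 2 were lower at an unadjusted p under 0.05, beside 2.27%. Of their log2 changes, 1 was positive and 14 were negative, with a median of -0.20. Gates did not overlap for 3 of these markers, all lower in BODIPY-high libraries, beside 5.95% of all genes tested. With the replicate block 2 of them, Olfml3 and Slc2a5, were called lower (limma adjusted p = 0.0111 and 0.0340). Their summed level was 2067760 to 2850020 normalized counts in BODIPY-high and 2655490 to 3119700 in BODIPY-low libraries. Many markers of other cells were higher in the BODIPY-high libraries: of 71 tested, 26 rose and 0 fell (limma, adjusted p under 0.05), and 36 rose with the replicate block. Of the 71 log2 changes, 58 were positive and 13 negative. Their summed level was 162969 to 450252 normalized counts in BODIPY-high libraries, against 86963 to 209288 in BODIPY-low libraries, and these ranges overlapped. Neutrophil markers alone had 63410 to 243809 normalized counts in BODIPY-high and 49912 to 152988 in BODIPY-low libraries. By cell type, 10 of 12 markers of border-associated macrophages, 5 of 5 of choroid plexus, 4 of 8 of astrocytes and 2 of 7 of oligodendrocytes rose. So did 2 of 4 of oligodendrocyte precursors, 1 of 3 of mural cells, 1 of 2 of T and NK cells and 1 of 2 of erythroid cells. In contrast, 0 of 8 endothelial, 0 of 9 neutrophil, 0 of 6 monocyte and 0 of 1 B cell markers were called without the block. Neuronal markers had 98.7 to 118 summed normalized counts in BODIPY-high and 29.5 to 78.4 in BODIPY-low libraries over 10 genes, of which 3 had no read in the BODIPY-low libraries, and 0 of the 4 tested were called. In a bulk library, fewer cells of a type and less RNA per cell cannot be told apart. The part of these other cells in the values below was not tested.

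The translation factors differed little between the gates. All 56 passed the filter on low values, and 0 were called higher and 0 lower in BODIPY-high libraries by limma at an adjusted p under 0.05. Among the 12767 genes tested, 2.05% were called, 2.03% higher and 0.0235% lower. The smallest adjusted p among them was 0.472. At an unadjusted p under 0.05, limma had 0 members higher, beside 8.03% of all genes tested, and 1 lower, beside 2.27%. After adjustment edgeR, DESeq2 and limma with the replicate block also called 0 members, beside 1.75%, 3.89% and 4.83% of all genes tested. Before adjustment edgeR and DESeq2 each had 2 members lower (Eef1b2 and Eif4e3), beside 2.62% and 2.67%. Limma with the replicate block had 1 member higher before adjustment (Eif4g3), beside 11.6% of all genes tested. It had 3 lower (Eef1b2, Eif3e and Eif4e3), beside 6.28%. The log2 changes, on the scale of log2(normalized count + 1), ran from -0.38 to 0.25 with a median of -0.065, beside a median of -0.0042 over all genes tested, and 35 were negative (62.5%) and 21 positive (37.5%), beside 50.8% and 49.2% of all genes tested. A p that misses the threshold does not show that levels were equal, so the 95% intervals are the more useful statement. For 51 of 56 members the interval of the ratio lay within 1.5-fold either way, and for 55 within 2-fold, beside 49.9% and 72.5% of all genes tested. The exceptions at 1.5-fold were Eif4e3, Eif4ebp3, Eif5a2, Eef1b2 and Eef1e1.

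**Figure D1:**
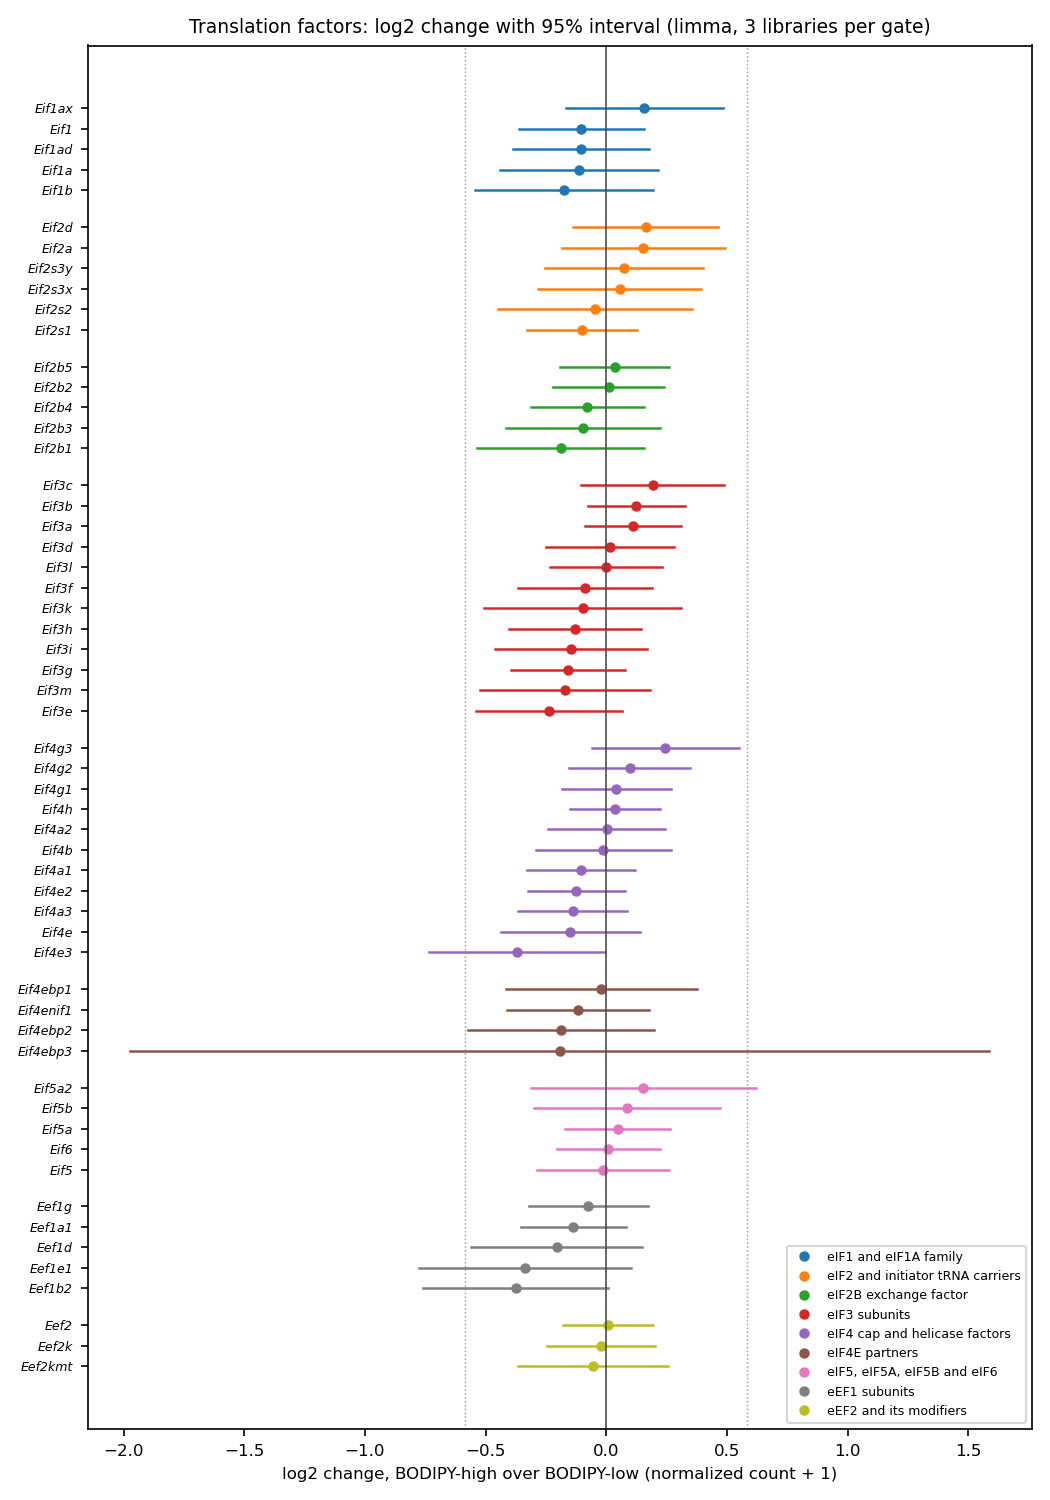
Log2 change (BODIPY-high over BODIPY-low, x axis) of each of the 56 translation factor genes, grouped and coloured by role. Points are limma estimates, bars are 95% intervals from 3 libraries per gate, and dotted lines mark 1.5-fold either way. All points lie between -0.38 and 0.25, and only Eif4ebp3 has an interval that reaches past 2-fold.

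Together the members took up 0.583%, 0.607% and 0.673% of normalized counts in BODIPY-high libraries 1, 2 and 3, against 0.596%, 0.636% and 0.651% in BODIPY-low libraries 1, 2 and 3. These ranges overlap, with the highest and the lowest share both in BODIPY-high libraries. Eef1a1 alone made up 19.106%, 20.002% and 19.813% of the members' counts in BODIPY-high libraries, against 21.488%, 20.873% and 20.640% in BODIPY-low libraries, without overlap. The median coefficient of variation of a member within a gate was 9.13% in BODIPY-high and 9.87% in BODIPY-low libraries. The median deviation of the members from their mean over all libraries was -0.072, -0.030 and 0.045 on the log2 scale in BODIPY-high libraries 1, 2 and 3, and -0.054, 0.054 and 0.028 in BODIPY-low libraries 1, 2 and 3. BODIPY-high library 1 was the lowest of the 6 for 17 members and BODIPY-low library 1 for 13. The highest was BODIPY-low library 2 for 16 members, BODIPY-low library 3 for 15 and BODIPY-high library 3 for 11.

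Gates did not overlap for 7 members. Eif2d, Eif3a and Eif3b were higher in every BODIPY-high library than in any BODIPY-low library, which is 3 of 56, beside 10.4% of all genes tested. Eif2b4, Eif4e2, Eif4e3 and Eef1a1 were lower in every BODIPY-high library, which is 4 of 56, beside 5.95%. These shares, 5.36% and 7.14%, are below and close to the background. Between libraries of the same number, 7 members were higher in all 3 pairs, beside 20.7% of all genes tested, and 18 were lower in all 3 pairs, which is 32.1%, beside 19% of all genes tested.

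Many mRNAs of the translation machinery are known to begin with a C followed by a run of pyrimidines, the 5′ terminal oligopyrimidine motif, through which mTORC1 controls how well they are translated. The annotated starts of 6 members are shown because they are the most abundant elongation factors, the member with the most negative log2 change, the longest run found, and the X- and Y-linked copies of eIF2 gamma. Each line gives 15 bases before and 15 bases from the RefSeq start (build GRCm38.p6, transcribed strand), with the run in capitals where there was one.
Eef1a1 (chr9:78481710-78481739, minus strand): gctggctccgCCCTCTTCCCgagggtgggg
Eef2 (chr10:81176616-81176645, plus strand): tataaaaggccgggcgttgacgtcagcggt
Eef1b2 (chr1:63176816-63176845, plus strand): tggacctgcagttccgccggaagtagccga
Eif3f (chr7:108934400-108934429, plus strand): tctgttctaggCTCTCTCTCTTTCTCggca
Eif2s3x (chrX:94212637-94212666, minus strand): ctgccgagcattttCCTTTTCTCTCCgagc
Eif2s3y (chrY:1010580-1010609, plus strand): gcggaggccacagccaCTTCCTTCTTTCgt
The search asked for a C within 5 bases of an annotated start followed by at least 4 letters that are each C or T, on the transcribed strand only. Of the 56 members, 44 had a start in the RefSeq table, and 11 of these (25%) held such a run, beside 24.0% of the 9745 tested genes with a start. Members with a run had a median log2 change of 0.010 and those without one of -0.047. A match describes letters at an annotated start and not the start used in these cells, and no match says only that the letters are not in this window.

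Levels can be compared between members only per length, and are given here as reads per kilobase of exon scaled to library depth (RPKM, from recovered reads over the union of exons in GENCODE M21). The order was led by Eef1a1, Eif1, Eef2 and Eif5a. Eef1a1, which encodes the GTPase that brings aminoacyl-tRNA to the ribosome, had 490 ± 44.0 RPKM in BODIPY-high and 528 ± 13.04 RPKM in BODIPY-low libraries (SD, n = 3 each). Eif1 followed with 134 ± 20.2 and 141 ± 14.8 RPKM in BODIPY-high and BODIPY-low libraries, and Eef2 with 108 ± 3.498 and 106 ± 3.42 RPKM. Eif5a had 100.5 ± 7.73 RPKM in BODIPY-high and 95.7 ± 8.80 RPKM in BODIPY-low libraries, within 2 SD of the Eef2 level in each gate. Eif4g2, Eif4a1, Eif4a3 and Eif3b came next at 49.7 to 67.5 RPKM over all libraries. At the low end stood Eif5a2, Eif4ebp2 and Eif4ebp3 at 2.30, 1.92 and 0.859 RPKM. The members' median was 14.2 RPKM, beside 4.23 RPKM for all genes tested that had an annotated length. A rank correlation of 0.973 linked these levels to those computed with the longest annotated transcript as the length, under which Eif5a (162 RPKM) stood above Eef2 (115 RPKM).

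**Figure D2:**
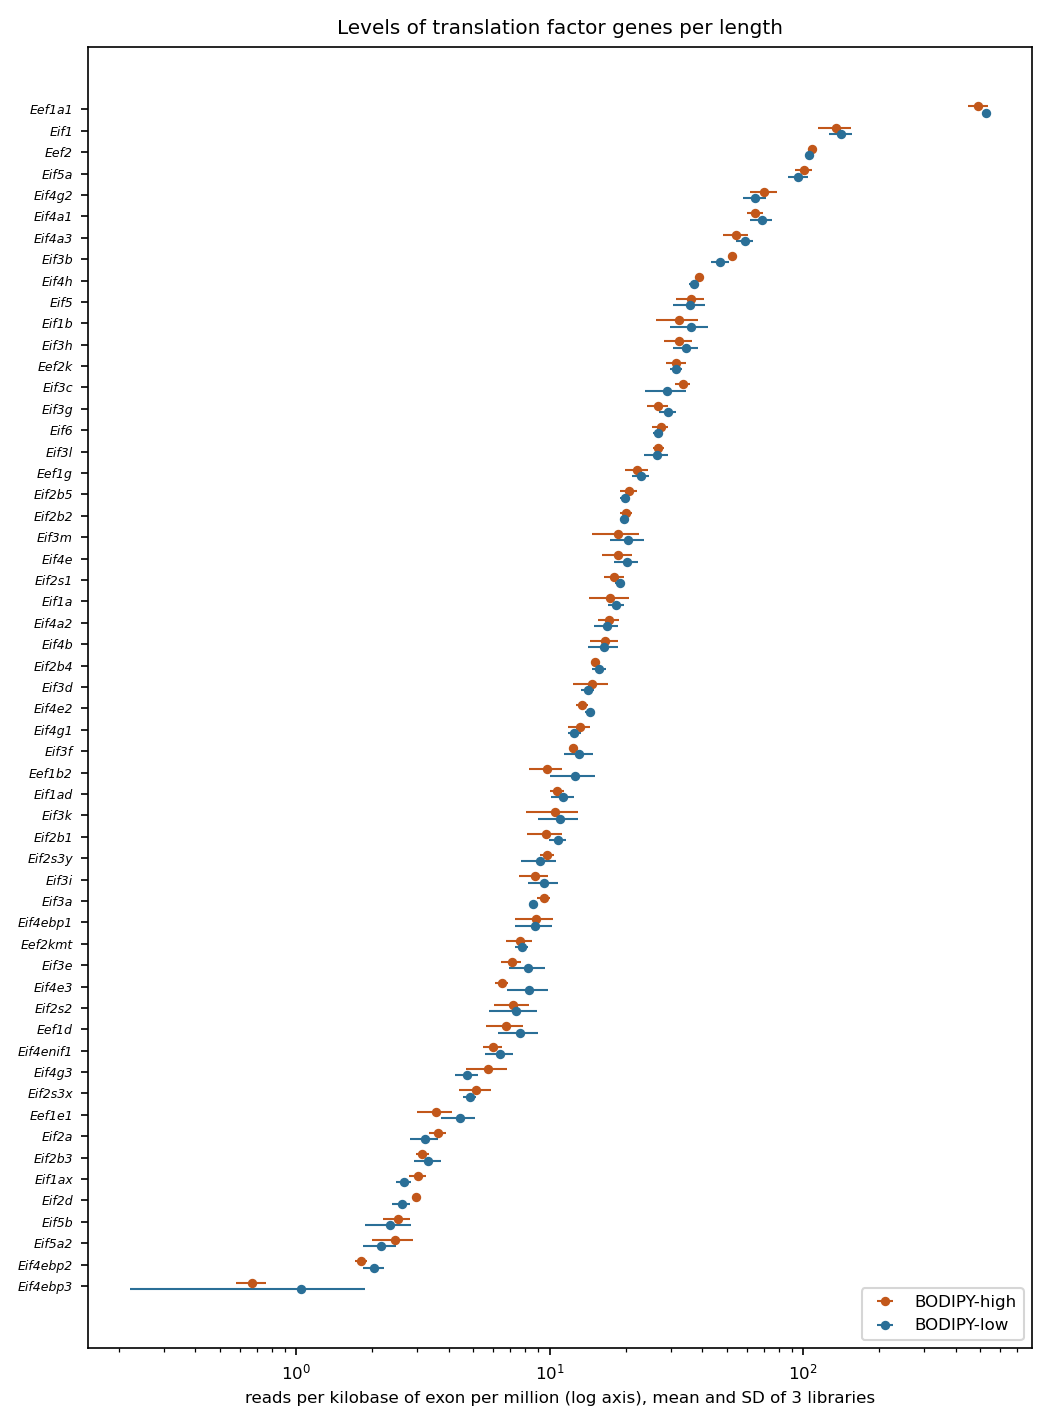
Level of each translation factor gene in RPKM (log axis), sorted by the mean over all libraries. Points are means and bars SDs of 3 libraries, orange for BODIPY-high and blue for BODIPY-low. Eef1a1 leads at 490 and 528 RPKM, and the gates lie close together for nearly all genes down to Eif4ebp3.

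Among the factors that select the start codon, Eif1 (chromosome 11, 100319885 to 100322096), which keeps the scanning ribosome open until a start codon is met, had 9514, 9874 and 11915 normalized counts in BODIPY-high libraries, against 10098, 11320 and 12118 in BODIPY-low libraries. The gates overlapped, and the log2 change was -0.10 ± 0.11 (SE; limma adjusted p = 0.86). The other members of this group were its paralog Eif1b, both eIF1A genes (Eif1a and the X-linked Eif1ax) and Eif1ad, which encodes a protein with an eIF1A-like domain. Across the 5 genes, 1 log2 change was positive (Eif1ax, 0.16) and 4 were negative, and the smallest adjusted p was 0.818 (limma).

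The genes of eIF2, the complex that carries the initiator tRNA, gave no call. Eif2s1 (chromosome 12, 78861819 to 78887010) encodes the alpha subunit, the target of the stress kinases. It had 3188, 3678 and 3052 normalized counts in BODIPY-high libraries and 3421, 3533 and 3640 in BODIPY-low libraries, and BODIPY-high library 2 lay above all BODIPY-low libraries while the other two lay below them. Its log2 change was -0.10 with a 95% interval of -0.33 to 0.13. The gamma subunit has an X-linked and a Y-linked gene. Eif2s3x (chromosome X) averaged 726 ± 92.8 normalized counts in BODIPY-high and 695 ± 41.8 in BODIPY-low libraries, and Eif2s3y (chromosome Y) averaged 1508 ± 129.5 and 1442 ± 243 in BODIPY-high and BODIPY-low libraries (SD, n = 3 each). Of the 100-base stretches of Eif2s3x transcripts, 33.7% also occur in a transcript of another annotated gene and 0% of those of Eif2s3y, so the count of Eif2s3x is the less certain. Eif2d, an alternative tRNA carrier known mainly from reinitiation, had 809, 814 and 807 normalized counts in BODIPY-high libraries and 775, 754 and 646 in BODIPY-low libraries. Its gates did not overlap, and the log2 change was 0.16 ± 0.13 (SE; limma adjusted p = 0.784).

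The exchange factor eIF2B, which recharges eIF2 with GTP and is blocked when eIF2 alpha is phosphorylated, was measured through all 5 of its subunit genes. Their log2 changes ran from -0.19 (Eif2b1) to 0.034 (Eif2b5). Eif2b4, the delta subunit gene (chromosome 5, 31187558 to 31193430), had 1456, 1449 and 1452 normalized counts in BODIPY-high libraries and 1471, 1641 and 1493 in BODIPY-low libraries. All BODIPY-high values lay below the BODIPY-low ones, by a log2 change of -0.078 ± 0.10 (SE; limma adjusted p = 0.887). Eif2b5, the catalytic epsilon subunit gene, averaged 1983 ± 106 in BODIPY-high and 1935 ± 77.8 in BODIPY-low libraries (SD, n = 3 each). The summed level of the 5 genes was 6489 to 6568 normalized counts in BODIPY-high and 6620.2 to 6797 in BODIPY-low libraries, and the sums did not overlap. The same held for the 5 genes with Eef1 symbols, at 46775 to 53640 against 54030 to 56281. Most of that sum was Eef1a1, at 42058 to 48113 in BODIPY-high and 49023 to 49979 in BODIPY-low libraries. Taken singly, Eef1b2, Eef1d, Eef1e1 and Eef1g each overlapped between gates. Sums of all other role groups overlapped between gates, and no sum was tested.

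The genes of eIF3, the large scaffold that holds the small subunit ready for mRNA, split by sign without a call. Of 12 subunit genes, 4 had positive and 8 negative log2 changes, with a median of -0.093. Of the 5 subunits conserved in budding yeast, the genes Eif3a, Eif3b and Eif3c had positive and Eif3g and Eif3i negative log2 changes. Eif3a (chromosome 19, 60761117 to 60790658) had 2917, 3145 and 3138 normalized counts in BODIPY-high libraries, against 2830, 2874 and 2809 in BODIPY-low libraries. Eif3b (chromosome 5, 140419328 to 140443360) had 6467, 6419 and 6544 in BODIPY-high libraries, against 5480.2, 6317 and 6053 in BODIPY-low libraries. Neither gene overlapped between gates, and Eif3c did, with 4148, 4390.2 and 4539 in BODIPY-high libraries and 3192, 4553 and 3812 in BODIPY-low libraries. Their log2 changes were 0.11 ± 0.09, 0.12 ± 0.09 and 0.19 ± 0.13 for Eif3a, Eif3b and Eif3c (SE; limma adjusted p = 0.781, 0.739 and 0.716).

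On the other side was Eif3e (chromosome 15, 43250058 to 43282719), which encodes a further subunit. It had 1607, 1879.5 and 1804 normalized counts in BODIPY-high libraries, against 1768, 2398 and 2101 in BODIPY-low libraries. Its highest BODIPY-high value exceeded the lowest BODIPY-low value, that of library 1, and the log2 change was -0.24 ± 0.13 (SE; limma adjusted p = 0.637). Eif3g, which encodes an RNA-binding subunit, averaged 1961 ± 139 in BODIPY-high and 2188 ± 130.2 in BODIPY-low libraries (SD, n = 3 each; limma adjusted p = 0.709). The remaining subunit genes Eif3d, Eif3f, Eif3h, Eif3i, Eif3k, Eif3l and Eif3m had log2 changes of -0.17 to 0.016. Per length the 12 subunit genes differed 6.48-fold in level, from 7.66 RPKM for Eif3e to 49.7 RPKM for Eif3b.

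Among the factors at the mRNA cap, Eif4e3 had the smallest p of all members. It encodes a divergent relative of the cap-binding protein eIF4E and lies on chromosome 6 from 99625135 to 99666771. It had 634, 569 and 608 normalized counts in BODIPY-high libraries, against 662, 772 and 928 in BODIPY-low libraries. Every BODIPY-high library lay below every BODIPY-low library, with BODIPY-low library 3 standing highest. The log2 change was -0.37 ± 0.16 with a 95% interval of -0.73 to -0.007 (SE; limma unadjusted p = 0.0466, adjusted p = 0.472). Its annotated exons share 373 bases with another gene, Gm20696, on the same strand, and reads within those bases cannot be assigned to either gene.

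The main cap-binding gene Eif4e (chromosome 3, 138526179 to 138559696) had 3859, 4848 and 3719 normalized counts in BODIPY-high libraries and 4182, 5104 and 4441 in BODIPY-low libraries. The gates overlapped, and in each gate library 2 was highest. Eif4e2, which encodes a cap-binding protein known mainly as a repressor, averaged 3734 ± 101 in BODIPY-high and 4069.8 ± 219 in BODIPY-low libraries (SD, n = 3 each), without overlap. The log2 changes of Eif4e and Eif4e2 were -0.15 ± 0.13 and -0.12 ± 0.09 (SE; limma adjusted p = 0.8 and 0.743).

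The scaffold genes had positive log2 changes without a call. Eif4g3 (chromosome 4, 137993022 to 138208508), a paralog of the main scaffold gene Eif4g1, had 2163, 2093 and 2763 normalized counts in BODIPY-high libraries, against 1771, 1996 and 2124 in BODIPY-low libraries. BODIPY-high library 3 stood apart at the top, and BODIPY-high library 2 lay below BODIPY-low library 3. This was the largest positive log2 change of the 56 genes, 0.25 ± 0.13 (SE; limma adjusted p = 0.614). Eif4g1 averaged 3554 ± 266 in BODIPY-high and 3451 ± 219.7 in BODIPY-low libraries (SD, n = 3 each). Its log2 change of 0.042 ± 0.10 (SE) became -0.019 without BODIPY-high library 3 and -0.0095 without BODIPY-low library 2. Eif4g2, whose product lacks the eIF4E-binding site, had 24928, 25047 and 29475 normalized counts in BODIPY-high libraries and 24379.7, 22569 and 27357 in BODIPY-low libraries. In both gates library 3 was the highest, and the log2 change was 0.097 ± 0.11 (SE; limma adjusted p = 0.866).

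The helicase gene Eif4a1 (chromosome 11, 69666936 to 69672423) averaged 10394 ± 527 normalized counts in BODIPY-high and 11200.4 ± 1117 in BODIPY-low libraries, and its paralog Eif4a2 averaged 3385 ± 233 and 3386 ± 344 in BODIPY-high and BODIPY-low libraries (SD, n = 3 each). Eif4a3, better known as the RNA-binding core of the exon junction complex, averaged 4281 ± 389 in BODIPY-high and 4709.6 ± 286 in BODIPY-low libraries (SD, n = 3 each; limma adjusted p = 0.743). The helicase cofactor genes Eif4b and Eif4h had log2 changes of -0.011 and 0.035. The interval for Eif4h, -0.15 to 0.22, was among the narrowest of the members.

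**Figure D3:**
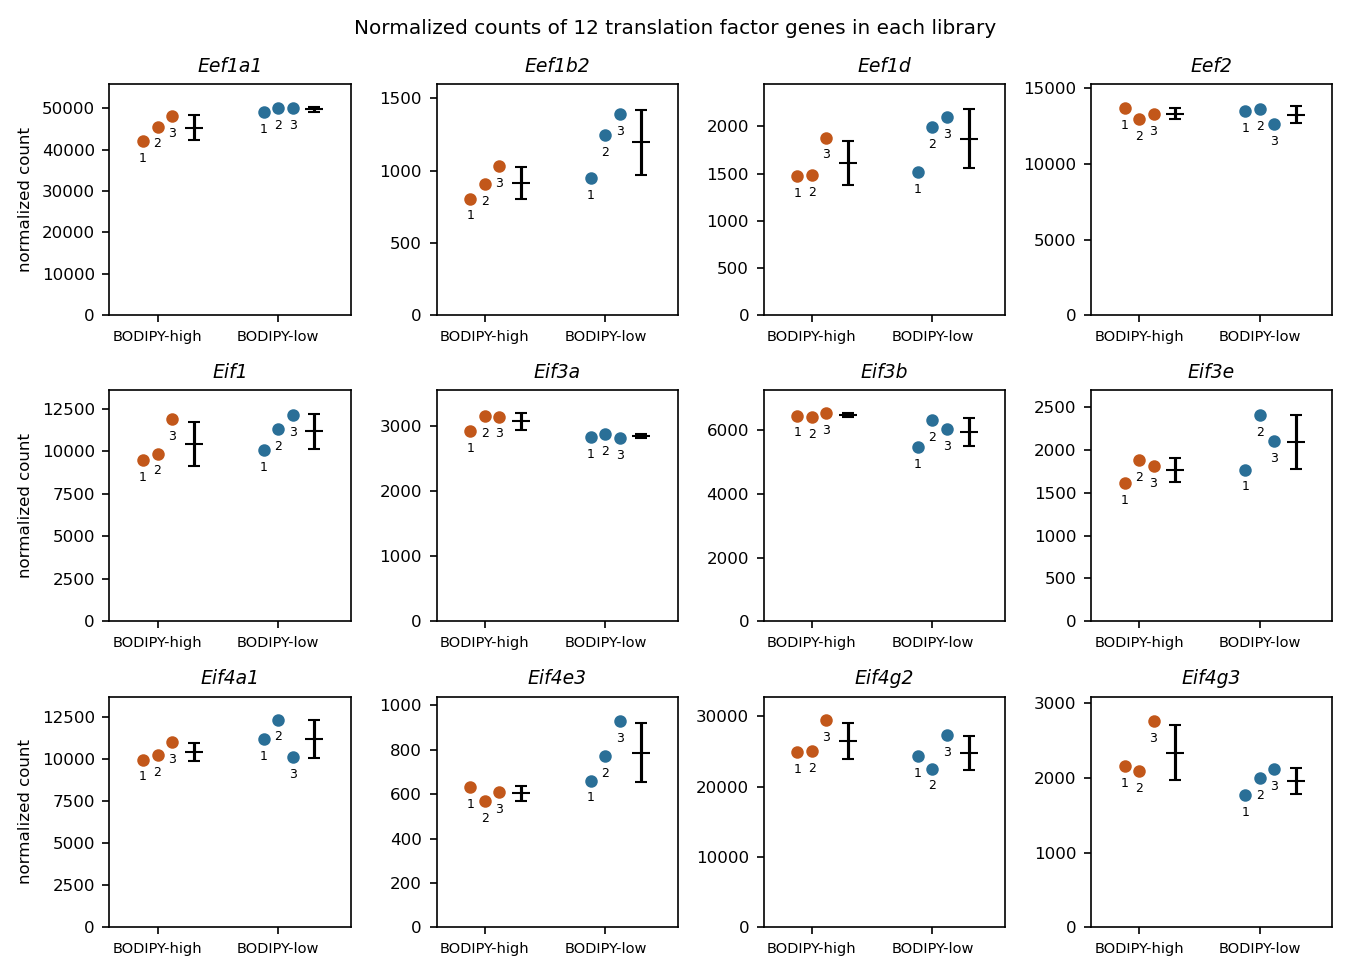
Normalized counts (y axis, from 0) of 12 translation factor genes in each library, BODIPY-high in orange on the left and BODIPY-low in blue on the right. Digits name the library, and the black bar is the mean with its SD (n = 3). Eif3a and Eif3b do not overlap and lie higher in BODIPY-high libraries, Eef1a1 and Eif4e3 do not overlap and lie lower, and the others overlap.

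The proteins that hold eIF4E back are the eIF4E-binding proteins, which mTORC1 releases by phosphorylation, and the transporter 4E-T, which carries eIF4E to the nucleus and to sites of mRNA storage. Their 4 genes all had negative log2 changes and none was called, with a smallest adjusted p of 0.818 (limma). Eif4ebp1 had 707, 612 and 826 normalized counts in BODIPY-high libraries and 599, 763 and 815 in BODIPY-low libraries, a full overlap. Eif4ebp2 averaged 388 ± 29.0 in BODIPY-high and 443 ± 49.2 in BODIPY-low libraries (SD, n = 3 each). Eif4enif1, the gene of 4E-T, averaged 1409.6 ± 129 and 1531 ± 183 in BODIPY-high and BODIPY-low libraries. Eif4ebp3 was close to the floor at 21.02, 16.0 and 18.4 normalized counts in BODIPY-high libraries and 31.8, 51.6 and 5.26 in BODIPY-low libraries. Its interval of 0.255-fold to 3.00-fold gives no information on direction, and 501 of its 744 exonic bases are shared with another annotated gene.

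Among the 5 genes named for eIF5, eIF5A, eIF5B and eIF6, 4 log2 changes were positive and 1 was negative, and the smallest adjusted p was 0.888 (limma). Eif5, the gene of the GTPase activator of eIF2, averaged 9110.0 ± 920.4 normalized counts in BODIPY-high and 9229 ± 1201 in BODIPY-low libraries (SD, n = 3 each). Eif5a (chromosome 11, 69916714 to 69921958), whose protein carries the modified lysine hypusine and helps the ribosome past proline stretches, had 8220.3, 9241 and 9099 in BODIPY-high libraries and 7794, 8936 and 9001 in BODIPY-low libraries. Each BODIPY-high library exceeded the BODIPY-low library of the same number, by a log2 change of 0.047 ± 0.10 (SE; limma adjusted p = 0.934). Its rarer paralog Eif5a2 averaged 457 ± 90.8 in BODIPY-high and 409 ± 63.7 in BODIPY-low libraries, with a wide interval of 0.805-fold to 1.54-fold. Eif5b, the gene of the subunit-joining GTPase, and Eif6, whose product keeps the large subunit from joining too early, had log2 changes of 0.085 and 0.008. The 95% interval for Eif6 was -0.20 to 0.22.

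The 5 genes with symbols beginning with Eef1 all had negative log2 changes, with a median of -0.21, and none was called. Eef1e1 is in this group by its name only, as its product is not an eEF1 subunit. Eef1a1 (chromosome 9, 78478449 to 78489151) had 42058, 45540 and 48113 normalized counts in BODIPY-high libraries, against 49023, 49977 and 49979 in BODIPY-low libraries. The BODIPY-low values lay close together, and the BODIPY-high values were lower and more spread out without overlapping them. The log2 change was -0.14 ± 0.10 with a 95% interval of -0.35 to 0.08 (SE; limma adjusted p = 0.731). Of its 100-base stretches, 16.3% also occur in transcripts of other annotated genes, so its level is uncertain.

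The exchange complex that recharges eEF1A is encoded by Eef1b2, Eef1d and Eef1g. Eef1b2 (chromosome 1, 63176825 to 63180486) had 807, 904 and 1029 normalized counts in BODIPY-high libraries, against 950.1, 1244 and 1390 in BODIPY-low libraries. The ranges overlapped through BODIPY-high library 3 and BODIPY-low library 1, and BODIPY-high was lower in 3 of 3 numbered pairs. It was the most negative log2 change of the 56, -0.38 ± 0.17 (SE; limma adjusted p = 0.499). Eef1d averaged 1614 ± 231 in BODIPY-high and 1868 ± 312 in BODIPY-low libraries, and Eef1g averaged 2128 ± 176 and 2239.6 ± 160.4 in BODIPY-high and BODIPY-low libraries (SD, n = 3 each). Eef1e1, whose product belongs to the complex of aminoacyl-tRNA synthetases in spite of its name, had 507.5, 429 and 354 in BODIPY-high libraries and 454, 579.6 and 592 in BODIPY-low libraries (log2 change -0.34 ± 0.19, SE; limma adjusted p = 0.646).

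Eef2 (chromosome 10, 81176631 to 81182498), the gene of the translocation factor, was close to level between gates. It had 13687, 12979 and 13279 normalized counts in BODIPY-high libraries and 13488, 13647 and 12642 in BODIPY-low libraries, in mixed order. The log2 change was 0.007 with a 95% interval of -0.18 to 0.19. Its inhibitor, the kinase gene Eef2k (chromosome 7, 120842831 to 120907450), averaged 8696 ± 815 normalized counts in BODIPY-high and 8815 ± 515 in BODIPY-low libraries (SD, n = 3 each). The log2 change of Eef2k was -0.022 with an interval of -0.25 to 0.20. The methyltransferase gene Eef2kmt, whose product modifies eEF2 in yeast and human cells, averaged 756 ± 71.0 in BODIPY-high and 784 ± 55.4 in BODIPY-low libraries.

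The ratio of paralogs within a library does not depend on how libraries are scaled. In 11 pairs compared, 0 log2 ratios were free of overlap between gates, and the smallest adjusted p was 0.856 (exact two-sided permutation test, which cannot go below 0.1 with 3 against 3, Benjamini-Hochberg over the 11 pairs). Per length, Eif4a2 made up 21.01%, 20.4% and 21.3% of the Eif4a1 and Eif4a2 sum in BODIPY-high libraries, against 18.4%, 19.9% and 20.9% in BODIPY-low libraries. Eif2s3y made up 65.5 ± 4.68% of the eIF2 gamma sum in BODIPY-high and 65.2 ± 4.85% in BODIPY-low libraries (SD, n = 3 each). Eif1ax made up 15.1 ± 2.68% of the eIF1A sum in BODIPY-high and 12.8 ± 1.40% in BODIPY-low libraries, and Eif5a2 only 2.38 ± 0.41% and 2.23 ± 0.48% of the eIF5A sum in BODIPY-high and BODIPY-low libraries. Eif4g3 made up 30.2 ± 1.67% of the sum with Eif4g1 in BODIPY-high and 27.3 ± 2.62% in BODIPY-low libraries. The gates overlapped in each of these. The size of a share depends on the length taken for each gene. Eif4a2 and Eif4a1 had 17.0 and 66.6 RPKM over all libraries with the union of exons. With the longest annotated transcript they had 33.4 and 91.1 RPKM. The counts themselves are less certain for Eif4a1 and Eif2s3x, with 22.6% and 33.7% of 100-base stretches also found in transcripts of other genes.

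**Figure D4:**
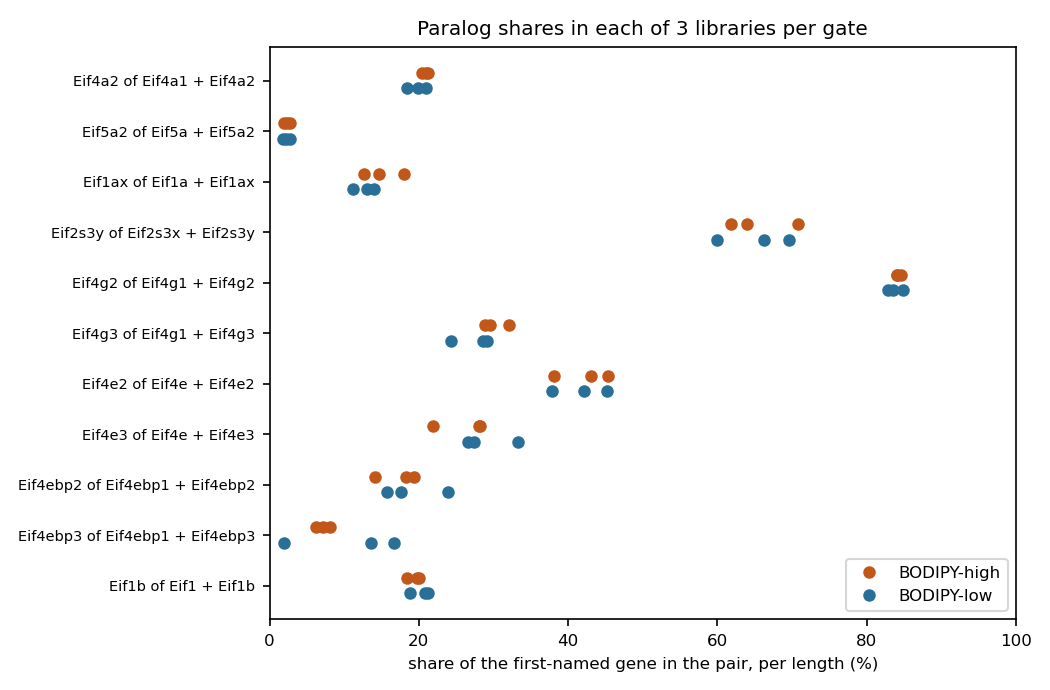
Share of the first-named gene in each paralog pair per length of the union of exons (x axis, percent). There is 1 point for each of 3 BODIPY-high libraries (orange) and 3 BODIPY-low libraries (blue). The 2 gates overlap in all 11 pairs, and Eif2s3y makes up 65.5% and 65.2% of the eIF2 gamma sum on average.

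Genes that act on these factors were likewise without a call. Over 8 lists (stress response, mTORC1 and MAP kinase signalling, poly(A)-binding proteins, other initiation helpers, termination and rescue, hypusine and diphthamide enzymes, aminoacyl-tRNA synthetases and mitochondrial factors), 0 of the tested genes passed limma in either direction, beside 2.05% of all genes tested. List medians ran from -0.12 to 0.032. Among 16 genes of the eIF2 kinases and the integrated stress response, 8 log2 changes were positive and 8 negative. At an unadjusted p under 0.05 (limma) there was 1 gene higher and 1 lower, beside 8.03% and 2.27% of all genes tested. Ppp1r15a, which encodes a partner of the phosphatase that restores eIF2, averaged 2761.5 ± 520.2 normalized counts in BODIPY-high and 2179 ± 181 in BODIPY-low libraries (SD, n = 3 each; limma adjusted p = 0.47). The adaptor gene Nck1, linked to the same phosphatase, averaged 1914 ± 215 and 2371 ± 58.7 in BODIPY-high and BODIPY-low libraries (limma adjusted p = 0.321).

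Among 25 genes of mTORC1 and MAP kinase signalling, 7 log2 changes were positive and 18 negative. At an unadjusted p under 0.05 (limma), 2 genes were higher and 0 lower, beside 8.03% and 2.27% of all genes tested. The share higher was thus close to the background, and the genes of smallest p were Rragd and Deptor. Rragd, which encodes a GTPase that brings mTORC1 to the lysosome, averaged 157 ± 33.8 normalized counts in BODIPY-high and 88.3 ± 11.7 in BODIPY-low libraries (SD, n = 3 each; log2 change 0.80, limma adjusted p = 0.341). The mTOR inhibitor gene Deptor averaged 489.7 ± 88.2 in BODIPY-high and 351 ± 39.1 in BODIPY-low libraries (limma adjusted p = 0.45). Of 8 poly(A)-binding genes, Paip2b, which encodes a repressor of the poly(A)-binding protein, averaged 384 ± 50.6 in BODIPY-high and 538 ± 104.6 in BODIPY-low libraries (limma adjusted p = 0.463). Pabpc1, the main cytoplasmic poly(A)-binding protein gene, had a log2 change of -0.22 ± 0.14 (SE; limma adjusted p = 0.706).

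In the remaining lists the genes of smallest p were Mcts1 and Ddx3x (14 initiation helpers), Ltn1 and Pelo (11 termination and rescue genes), Dohh and Dnajc24 (9 hypusine and diphthamide enzymes), Wars and Gars (22 synthetase and scaffold genes) and Gfm1 and Mtrf1l (11 mitochondrial factors). Their adjusted p ran from 0.546 (Dohh, the enzyme that completes hypusine on eIF5A; log2 change -0.23) to 0.865 (Pelo, a ribosome rescue factor; -0.25). The synthetase genes Wars and Gars, for tryptophan and glycine, had log2 changes of 0.17 and 0.18 (limma adjusted p = 0.619 and 0.62).

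The mRNAs of cytosolic ribosomal proteins, the usual companions of the eEF1 mRNAs, were set beside the factors. All 77 tested had negative log2 changes, beside 50.8% of all genes tested, with a median of -0.24. By limma 0 were called in either direction, beside 2.05%, and 1 was lower at an unadjusted p under 0.05, beside 2.27%. By library their median deviation was -0.25, -0.30 and 0.16 in BODIPY-high libraries 1, 2 and 3, against -0.17, 0.11 and 0.44 in BODIPY-low libraries 1, 2 and 3, so the gates overlapped. Without BODIPY-low library 3 that median was -0.092 and 9 of the 77 were positive, and without BODIPY-low library 1 it was -0.40. The 5 Eef1 genes, Eef1e1 included, stayed negative when any 1 library was left out, with medians of -0.35 to -0.13. Eef1g came close to 0, at -0.005, without BODIPY-high library 1. The median deviation of these 5 genes was -0.18, -0.16 and 0.023 in BODIPY-high libraries 1, 2 and 3. It was -0.075, 0.21 and 0.29 in BODIPY-low libraries 1, 2 and 3. In both gates library 3 was the highest for the Eef1 and the ribosomal protein genes.

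**Figure D5:**
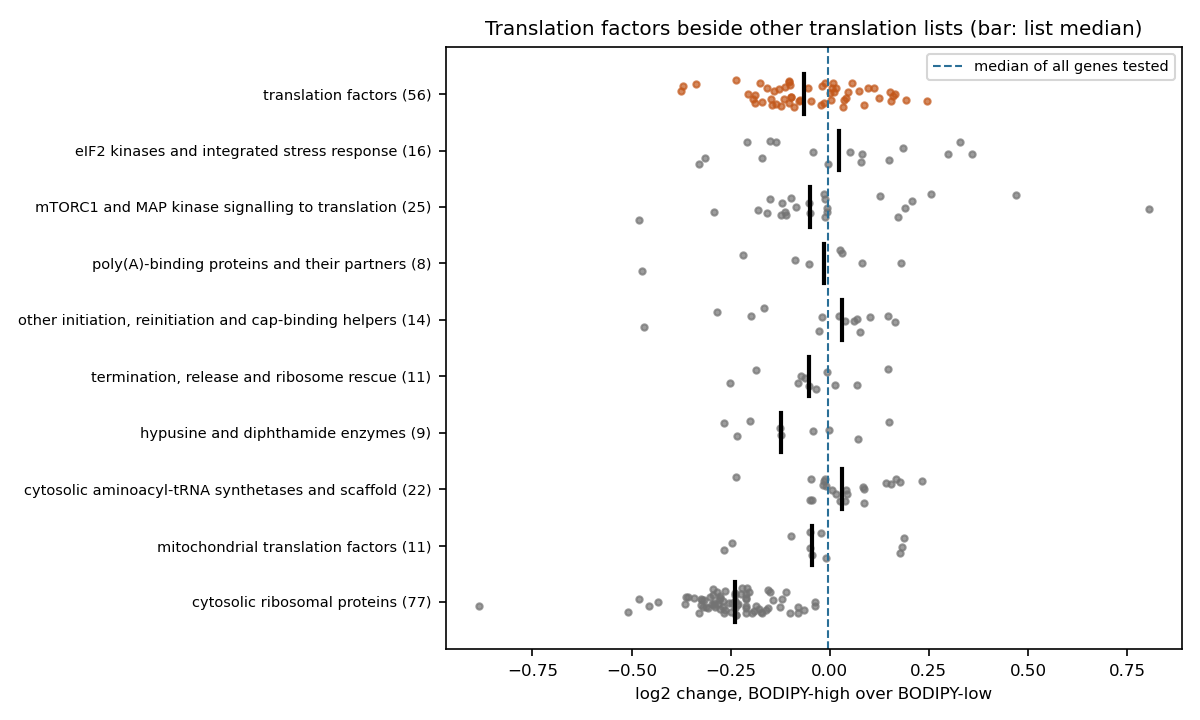
Log2 change (BODIPY-high over BODIPY-low, x axis) of the 56 translation factor genes (orange) and of genes in 9 other lists of the translation machinery (grey). Each point is a gene, black bars are list medians and the dashed line is the median of all genes tested. The factors centre on -0.065, and all 77 ribosomal protein genes lie below 0.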

How the data were processed

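Per the series' design text and the submitters' processing notes, FastQC 0.11.4 served the authors for read quality, STAR 2.5.3a for alignment to mm10 and for gene counting, and DESeq2 for testing. The notes list both mm9 and mm10, while the gene annotation and the strand column counted are not stated there. Gene positions and exon lengths are from GENCODE M21 (GRCm38, the assembly of mm10). The deposited signal values behave as gene counts divided by a size factor for each library, as read from the values themselves. All values were whole multiples of 1 step within 0.05 of a read (100% in each library), so reads were recovered. Smart-seq v4 and Nextera XT, the kits named in the labels' protocols, do not keep strand. Copies made by PCR are not independent molecules.

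Gates were compared by limma-trend (version 3.58.1 under R 4.3.3; two-sided) after a log2 transform with a pseudocount of 1. Gate was the sole factor, so SEs, intervals and p-values are from this unpaired fit unless the replicate block or another method is named. Genes entered if 3 or more libraries reached 10 normalized counts, and p was adjusted by Benjamini-Hochberg over 12767 genes. Alternatives were edgeR 4.0.16 and DESeq2 1.42.0 on recovered reads, other scalings, filters and pseudocounts, a replicate block and leaving out each library. The fits were also run on simulated data in which 200 genes were changed by at least 2-fold. These changes are larger than that of any member, so that run says nothing about calls of the members' size. Replicate numbers may pair the samples. Over all genes tested, deviations from the gate means correlated at 0.354, 0.244 and 0.363 between same-numbered libraries, and at -0.26 to -0.095 otherwise. Deviations within a gate sum to 0, so this contrast is partly built in. Over the members, same-numbered libraries correlated at 0.341, -0.205 and 0.197, and the others at -0.35 to 0.19, so pairing was less clear there. Named genes were all called members, the 12 of smallest p, the 6 of highest level, a fixed set of key factors and the 2 genes of smallest p in each other list, and further members were named to cover each group. Members and lists were chosen with earlier results of these data known, and the ribosomal protein list, the start search and the length classes were added after values were seen.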

Additional observations from a re-analysis of the deposited data

How the results depend on the processing

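No member was called higher or lower under any of the 15 alternatives, and the smallest adjusted p of any member was 0.0974, for Eef1b2 with the replicate block (log2 change -0.38 ± 0.11, SE). The median log2 change of the members stayed between -0.10 and -0.015 over all alternatives, within 1 SD of its spread over libraries. Of 839 member values under the alternatives, 60 had another sign than the main value, in 23 members whose main log2 changes were 0.19 or smaller in size, and none of these was called. The count over all genes tested was less stable. Against 259 higher and 3 lower, it was 558 and 59 with the replicate block, 464 and 32 by DESeq2, 222 and 1 by edgeR, 131 and 1 with a filter at 50, and 259 and 1 with scaling by total reads. Leaving out 1 library gave 15 to 271 higher and 0 to 2 lower genes: 169, 15 and 59 higher without BODIPY-high library 1, 2 or 3, and 135 and 117 without BODIPY-low library 1 or 2. The block also raised calls among markers of border-associated macrophages to 12 higher, of astrocytes to 6, of oligodendrocytes to 3 and of oligodendrocyte precursors to 3. Markers of neutrophils rose to 2 calls, of erythroid cells to 2 and of monocytes to 1. It changed no call among the members, the ribosomal protein genes or the 8 translation lists. The median half-width of the members' 95% intervals was 0.28 on the log2 scale without the block.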

Other observations

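Of the 23 members in the shortest class (up to 3267 bases, with class edges set on all tested genes of known length), 4 lay above 0 in log2 change, with a median of -0.10, beside -0.043 for all 4091 tested genes of that class. The 17 members of the middle class had a median of 0.007, beside 0.018, and the 16 of the longest class one of -0.019, beside 0.013. Across the 56 members, Spearman's rho between log2 change and exonic length was 0.395, beside 0.085 across 12267 tested genes. Genes are not independent replicates, so these are descriptions of the libraries. With the longest annotated transcript as the length, 5 of 26 members were positive in the shortest class and 7 of 10 in the longest.

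Sequence shared with other annotated genes was uneven among the members. Of the 56, 27 shared no 100-base stretch with another gene's transcripts, and 10 shared at least 10% of theirs, led by Eif4ebp3 (62.8%), Eif2s3x (33.7%), Eef1g (32.4%), Eif3d (32.0%) and Eif4a1 (22.6%). Exons of 22 members overlapped those of another annotated gene on either strand, most for Eif3d (2151 bases) and Eif5b (1643 bases), so the levels of these genes are the least certain of the group.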
